A study of Mus musculus with 8 samples.

Results

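Collagen chain genes were examined in cultured mouse palatal mesenchyme of 2 genotypes, Tgfbr2 fl/fl; Wnt1-Cre and Tgfbr2 fl/fl, where Tgfbr2 encodes the type II TGF-beta receptor. A gene was a member if its symbol had the form Col, a number, the letter a and a number, and if a probe set annotated to that gene alone measured it. The array measured 42 such genes among 18193 genes in all. They comprised 11 fibrillar chains, 9 basement membrane chains, 9 FACIT chains (fibril-associated collagens with interrupted triple helices), 8 network chains and 4 transmembrane chains. Col26a1, which belongs to none of these classes, made up the remainder. Each gene was read through its brightest probe set (by mean of all 8 arrays), on a log2 intensity scale, so that a difference of 1 is a doubling. Choosing members by symbol used no measured value.

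Collagens are extracellular proteins of 3 alpha chains wound into a triple helix, and each chain has its own gene. Fibrillar chains build the banded fibrils of connective tissue, type IV chains build the sheet of basement membranes, and FACIT chains sit on the surface of fibrils. Type VI chains form beaded filaments and type VIII and X chains form hexagonal lattices, here counted together as network chains. Palatal mesenchyme derives largely from the cranial neural crest and secretes a fibrillar matrix as the palatal shelves grow. TGF-beta signals through a complex of type I and type II receptors to SMAD proteins and is a textbook inducer of fibrillar collagen genes in fibroblasts.

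The cells came from embryonic day 13.5 embryos of C57BL/6J background and were harvested after 2 passages. The mutant group (4 arrays) had the genotype Tgfbr2 fl/fl; Wnt1-Cre, in which Cre removes the floxed segment in neural crest descendants and leaves cells of other origin untouched. The control group (4 arrays) had the genotype Tgfbr2 fl/fl without Cre, so its titles' word Wildtype covers floxed alleles that both groups carry. Whether each array came from its own embryo is not stated, and the p-values therefore measure a spread among arrays that may be technical.

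Tgfbr2 itself had log2 intensities of 12.63, 12.76, 12.55 and 11.73 in the mutant arrays, against 12.40, 12.38, 11.72 and 11.66 in the control arrays. The groups overlapped, and the mutant minus control difference was 0.37 (SE 0.27, n = 4 and 4; limma adjusted p = 0.538). The position of its probes with respect to the floxed segment is unknown here, so this value checks no label. Of 11 mesenchyme markers 10 exceeded the median of all values on all 8 arrays, and Osr2, a palatal mesenchyme regulator, lay below it on all of them. All 20 macrophage and leukocyte markers on the list also exceeded that median on all 8 arrays. Their mean was 11.45 to 13.43 in mutant arrays and 11.32 to 12.71 in control arrays, and their median difference was 0.85. All 20 had a higher mutant mean, as did 8795 of all 18193 genes. Of the 20, 0 passed the adjusted threshold and 5 were higher at a limma unadjusted p under 0.05 (5.84% of all genes). In RNA from a whole culture, fewer cells of a type and less RNA per cell cannot be told apart. The bioB hybridisation controls split the arrays into replicates 1 and 2 of both genotypes (6.34 to 6.52) and replicates 3 and 4 of both (8.24 to 8.79). The poly-A controls were low on mutant replicates 3 and 4 and control replicate 3 (6.77 to 7.56) and higher on the rest (8.53 to 9.21). Xist was at 11.48 on control replicate 3 and between 5.93 and 6.59 on the other arrays, and Col4a5 and Col4a6 are the members on the X chromosome.

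Of the fibrillar collagen chains 9 of 11 had lower mean signal in the mutant cultures, Col8a1 and Col8a2 of the type VIII pair also had lower means, with log2 differences of -1.03 and -2.07, and the FACIT gene Col14a1 had a higher mean. None of these differences passed the adjusted threshold. Under limma with Benjamini-Hochberg adjustment over 18193 genes, 16 genes had an adjusted p under 0.05, which is 0.0879% of those tested, and 0 of the 42 collagen genes were among them. At an unadjusted p under 0.05 the collagen genes numbered 9 lower and 1 higher, where 9.69% of all genes were lower and 5.84% were higher. Mutant and control values did not overlap for 7 collagen genes, all with lower mutant values, against 5.18% of all genes lower without overlap and 2.89% higher. A negative difference was seen in 26 of the 42, beside 51.7% of all genes, and the median difference of the collagen genes was -0.04, beside -0.01 for all genes.

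By class, of the 11 fibrillar chains 9 had a negative difference (51.7% of all genes did), among them Col24a1 at -0.0012. At an unadjusted p under 0.05 7 were lower (9.69% of all genes), and 6 were lower without overlap (5.18%). The class median was -0.38. The 8 network chains had a median of -0.07, with 2 at an unadjusted p under 0.05, both lower. The 9 FACIT chains had a median of -0.06 and 1 such gene, which was higher. The basement membrane chains (median 0.04) and the transmembrane chains (median 0.07) had none. Of the 42 genes 27 had a mean above the median of all values (6.93), namely 9 fibrillar, 7 FACIT, 5 basement membrane, 5 network and 1 transmembrane gene, and all 10 genes with an unadjusted p under 0.05 were among these 27. The 27 had a median difference of -0.16, beside -0.04 for all 12180 genes with a mean above that median. In a limma fit of those 12180 genes 12.5% were lower and 6.34% higher at an unadjusted p under 0.05.

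**Figure D1:**
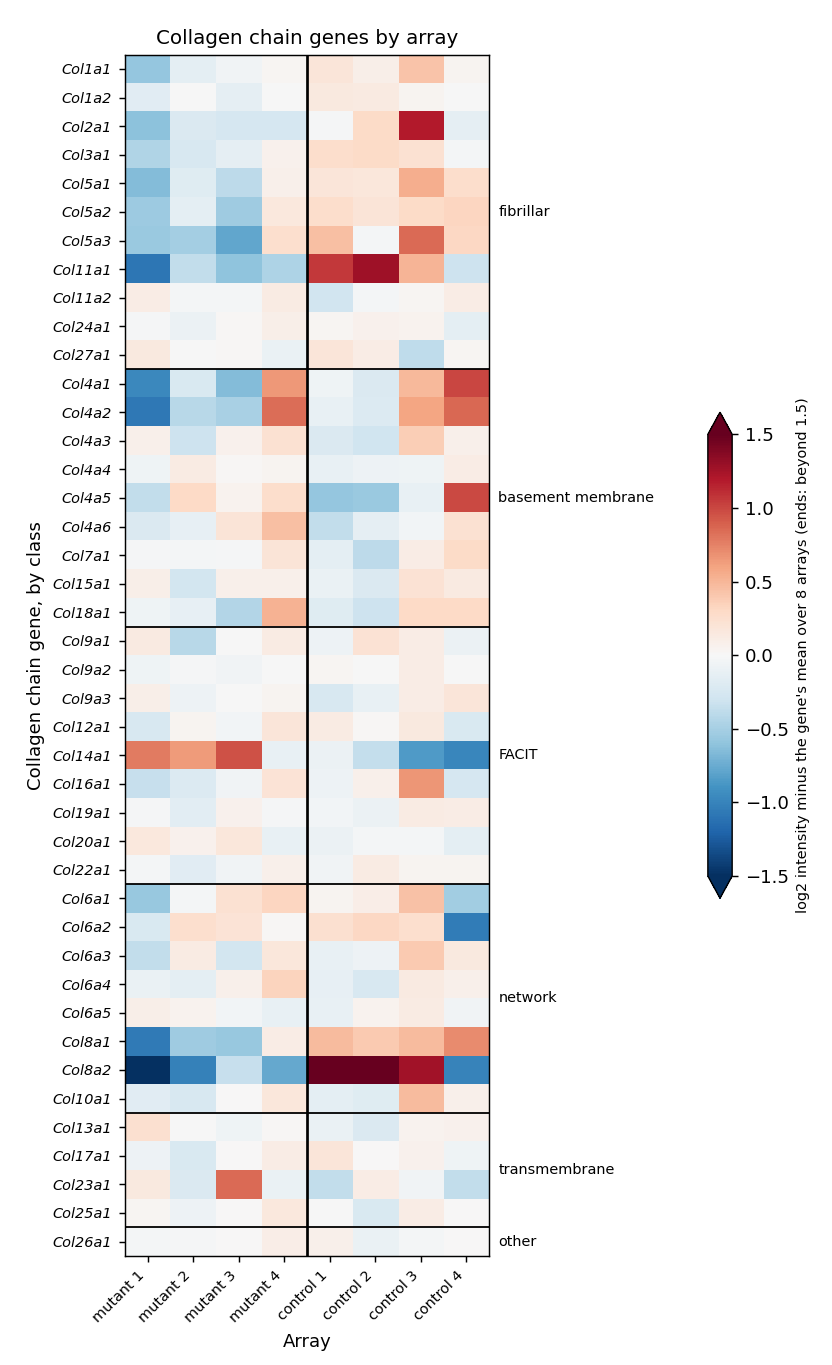
Log2 intensity of each of the 42 collagen chain genes minus that gene's mean over the 8 arrays, with mutant arrays left of the line and control arrays right of it, and genes in rows by class. The fibrillar rows other than Col11a2, Col24a1 and Col27a1 are mostly blue (below their own mean) in mutant arrays and red in control arrays, as are Col8a1 and Col8a2. Mutant replicate 4 lies above the mean for Col1a1, Col3a1, Col5a1, Col5a2, Col5a3 and Col8a1. Col14a1 runs the other way, and most other rows are pale, as is Col1a2.

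**Figure D2:**
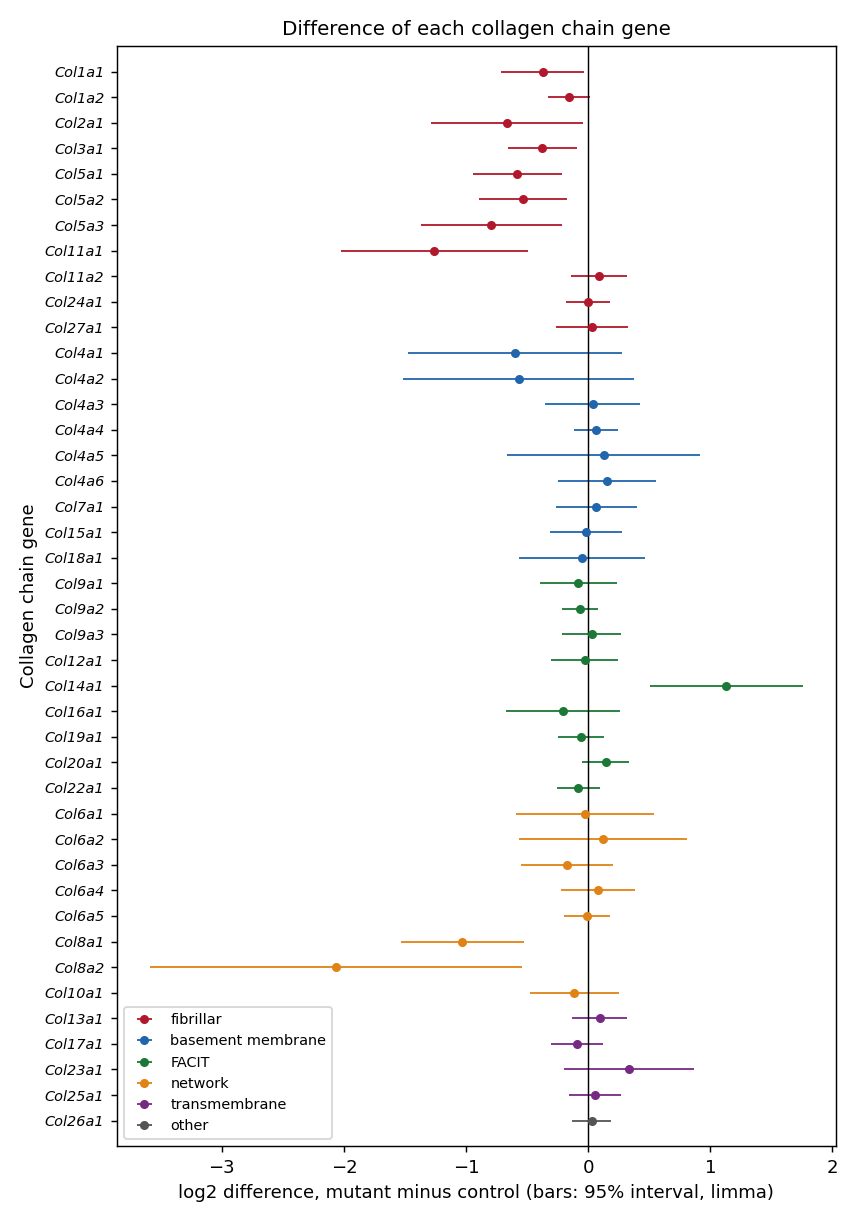
Mutant minus control log2 difference of each collagen gene (points) with its 95% confidence interval from limma (bars), ordered by class. Col8a2 lies lowest at -2.07 and Col14a1 highest at 1.13, and no gene passed an adjusted p of 0.05.

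Among the fibrillar chains the type I pair, which forms the main fibril of skin, bone and mesenchyme, had small differences. Col1a1 had log2 intensities of 12.53, 12.95, 13.05 and 13.14 in mutant arrays, against 13.28, 13.20, 13.54 and 13.15 in control arrays. Every mutant value lay below every control value, although replicate 4 of the mutants and replicate 4 of the controls nearly met. Col1a1 averaged 12.92 ± 0.27 in mutants and 13.29 ± 0.17 in controls (SD, n = 4 each), a difference of -0.37 (SE 0.15; limma adjusted p = 0.285). Col1a2, its partner chain, had 14.64, 14.80, 14.67 and 14.80 in mutants, against 14.96, 14.94, 14.84 and 14.81 in controls. The groups again did not overlap but nearly met, and the difference was -0.16 (SE 0.08; limma adjusted p = 0.348). This probe set read close to the highest value of the table, 15.18.

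Col3a1 encodes the homotrimeric type III chain that copolymerises with type I in soft tissue. It had 13.92, 14.13, 14.23 and 14.43 in mutants, against 14.63, 14.66, 14.59 and 14.34 in controls. Control replicate 4 lay below mutant replicate 4, so the groups overlapped. The difference was -0.38 (SE 0.12; limma adjusted p = 0.232).

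The type V chains are minor components that nucleate type I fibrils and set their width. Col5a1 had 12.02, 12.49, 12.28 and 12.74 in mutants, against 12.85, 12.84, 13.21 and 12.93 in controls. Col5a2 had 13.62, 14.02, 13.63 and 14.33 in mutants, against 14.43, 14.36, 14.45 and 14.49 in controls. Neither gene's groups overlapped, and in both the mutant arrays spread more widely than the control arrays. The differences were -0.58 (SE 0.16; limma adjusted p = 0.190) for Col5a1, which is 1.49 times lower, and -0.53 (SE 0.16; adjusted p = 0.202) for Col5a2, which is 1.45 times lower. Col5a3, a further type V chain of narrower distribution, had 8.98, 9.03, 8.76 and 9.79 in mutants, against 9.99, 9.50, 10.39 and 9.85 in controls. Its groups overlapped through mutant replicate 4 and control replicate 2, and its difference was -0.79 (SE 0.25; adjusted p = 0.221).

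Col11a1 encodes a type XI chain, close in sequence to the type V chains and best known from the thin fibrils of cartilage. It had 9.87, 10.59, 10.36 and 10.49 in mutants, against 12.02, 12.22, 11.47 and 10.64 in controls. The groups did not overlap, but control replicate 4 lay only just above the highest mutant array. Col11a1 averaged 10.33 ± 0.32 in mutants and 11.59 ± 0.71 in controls (SD, n = 4 each), a difference of -1.26 (SE 0.33; limma adjusted p = 0.189), or 2.39 times lower. Among arrays with low bioB controls its difference was -1.89, and among those with high bioB controls it was -0.63. The difference between these values was not tested.

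Col2a1, the homotrimeric chain of cartilage fibrils, lay outside the rule for named genes and is named after its values were seen. It had 6.45, 6.85, 6.81 and 6.82 in mutants, against 7.05, 7.35, 8.26 and 6.94 in controls. The groups did not overlap, control replicate 3 stood above the other controls, and all mutant values were under the median of all values. The difference was -0.67 (SE 0.27; limma adjusted p = 0.298) and -0.38 without control replicate 3. The other 3 fibrillar chains, Col11a2, Col24a1 and Col27a1, differed by at most 0.09.

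**Figure D3:**
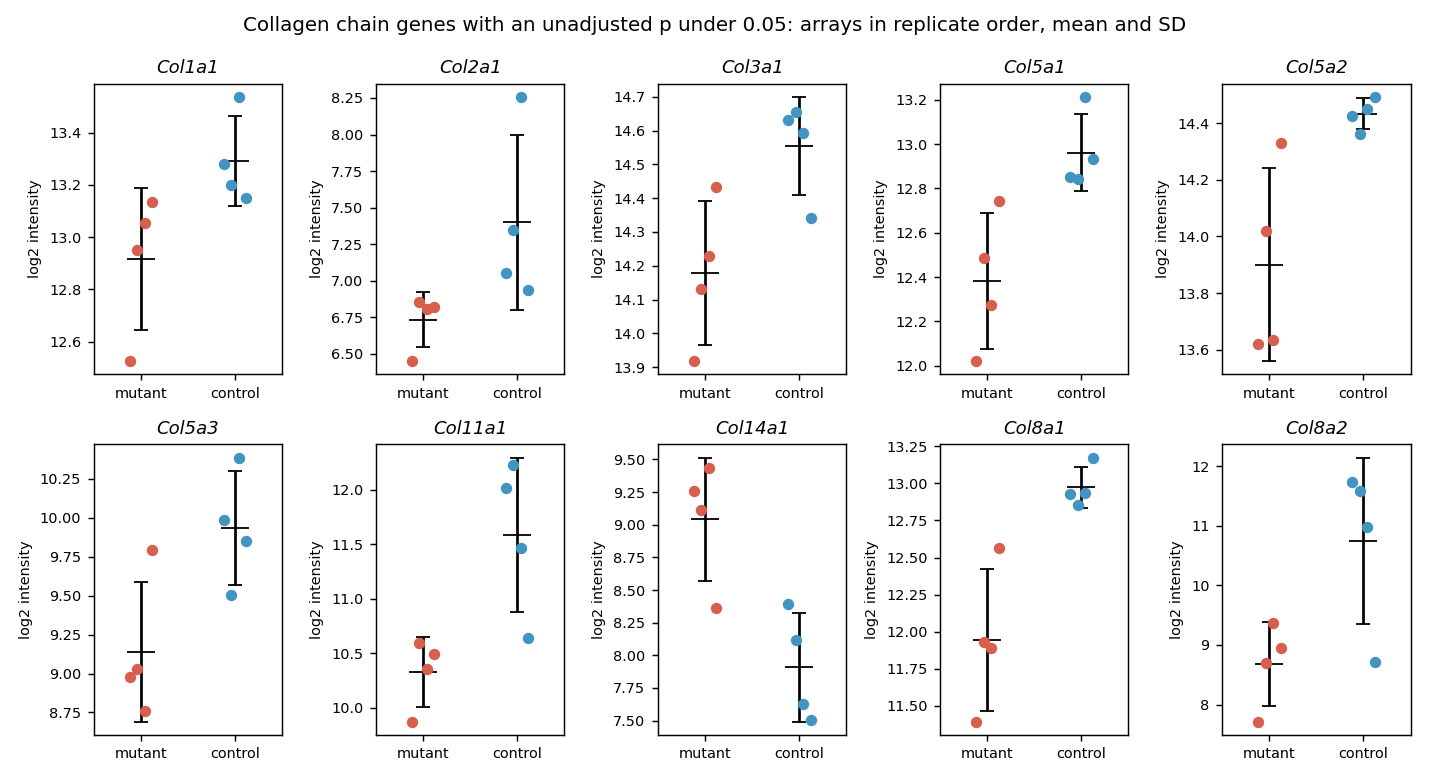
Log2 intensity on each array (points) for the 10 collagen genes with an unadjusted p under 0.05, mutant arrays left of control arrays in each panel, with bars for the mean and SD of 4 arrays. Col1a1, Col2a1, Col5a1, Col5a2, Col8a1 and Col11a1 have no overlap between groups, while Col8a2 overlaps through control replicate 4 at 8.71.

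Network chains divided into the type VIII pair, with differences of -1.03 and -2.07, and the remaining members, with differences between -0.17 and 0.12. Col8a1 and Col8a2 encode short chains that assemble into hexagonal lattices, known from the membrane under the corneal endothelium and from vessel walls. Their promoter windows, and that of Col11a1, are shown because these are the collagen genes with the largest negative differences. The windows run from upstream of the transcription start into the first bases of the gene, are written 5′ to 3′ on the gene's strand and come from RefSeq on GRCm38.p6. Col8a1 is at chr16:57754688-57754987 on the minus strand, Col8a2 at chr4:126286544-126286843 on the plus strand and Col11a1 at chr3:114030290-114030589 on the plus strand. Capitals mark CAGAC or its reverse complement GTCTG (the SMAD box) and CCAAT or its reverse complement ATTGG (the CCAAT box).
Col8a1: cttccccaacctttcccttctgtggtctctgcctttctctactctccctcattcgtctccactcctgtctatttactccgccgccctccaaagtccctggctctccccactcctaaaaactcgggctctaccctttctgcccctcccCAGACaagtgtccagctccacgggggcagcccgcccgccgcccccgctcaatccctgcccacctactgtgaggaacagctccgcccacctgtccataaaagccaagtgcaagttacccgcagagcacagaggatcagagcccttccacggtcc
Col8a2: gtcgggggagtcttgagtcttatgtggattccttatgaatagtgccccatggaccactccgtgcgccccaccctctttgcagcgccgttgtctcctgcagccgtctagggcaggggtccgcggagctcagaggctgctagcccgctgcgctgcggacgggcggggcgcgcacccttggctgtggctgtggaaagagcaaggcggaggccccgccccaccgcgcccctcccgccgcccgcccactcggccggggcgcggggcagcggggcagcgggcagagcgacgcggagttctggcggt
Col11a1: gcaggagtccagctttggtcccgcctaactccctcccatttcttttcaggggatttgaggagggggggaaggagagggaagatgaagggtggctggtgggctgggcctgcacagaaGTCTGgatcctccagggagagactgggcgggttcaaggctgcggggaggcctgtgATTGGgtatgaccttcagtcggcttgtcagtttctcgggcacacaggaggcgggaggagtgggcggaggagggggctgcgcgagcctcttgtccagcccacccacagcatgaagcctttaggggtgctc
Col8a1 and Col11a1 each hold 1 SMAD box match. Col11a1 also holds 1 CCAAT box match, and the Col8a2 window holds no match to either motif. The 5 letters of the SMAD box occur on 1 strand or the other in 49.59% of 32851 windows of the same length, and in 18 of the 36 windows of the 33 collagen genes that had one (50%). The CCAAT box occurred in 37.41% of all windows and in 13 of the 36 (36.1%). The letters GGGCGG or CCGCCC (the GC box, not marked) occurred in 35.66% of all windows and in 22 of the 36 (61.1%), with 4 matches each for Col8a1 and Col8a2 and 2 for Col11a1. A match describes the letters alone and is not a bound site.

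Col8a1 had log2 intensities of 11.39, 11.93, 11.89 and 12.57 in mutant arrays, against 12.93, 12.86, 12.94 and 13.17 in control arrays. All mutant values lay below all control values, and the control arrays were the tighter group. Col8a1 averaged 11.94 ± 0.48 in mutants and 12.97 ± 0.14 in controls (SD, n = 4 each). The difference was -1.03 (SE 0.22, 95% confidence interval -1.53 to -0.53), or 2.04 times lower, with the smallest p of any collagen gene (limma unadjusted p = 0.00141, adjusted p = 0.174). It was -1.23 among arrays with low bioB controls and -0.83 among those with high bioB controls.

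Col8a2 had 7.71, 8.69, 9.37 and 8.94 in mutants, against 11.73, 11.58, 10.97 and 8.71 in controls. Control replicate 4 fell within the mutant range, and the other 3 control arrays lay above every mutant array. The difference was -2.07 (SE 0.67, 95% confidence interval -3.59 to -0.54), or 4.19 times lower (limma adjusted p = 0.225), the largest of any collagen gene in either direction. It was -3.45 among arrays with low bioB controls and -0.68 among those with high bioB controls, a difference that was not tested. Without control replicate 4 it was -2.75.

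Type VI chains form beaded filaments between cells and fibrils, and Col6a1, Col6a2 and Col6a3 encode the classic trimer. Col6a1 had 11.29, 11.83, 12.08 and 12.18 in mutants, against 11.89, 11.96, 12.30 and 11.33 in controls, a difference of -0.03 (SE 0.25; limma adjusted p = 0.970). Col6a2 had 12.03, 12.51, 12.46 and 12.28 in mutants, against 12.50, 12.57, 12.50 and 11.21 in controls, a difference of 0.12 (SE 0.30; adjusted p = 0.879). The low value of control replicate 4 sets that sign, since the difference without it was -0.21. Col6a3 had 11.91, 12.40, 12.01 and 12.45 in mutants, against 12.16, 12.20, 12.67 and 12.42 in controls, a difference of -0.17 (SE 0.16; adjusted p = 0.646). All 3 genes overlapped between genotypes. Their 95% intervals were -0.59 to 0.54 for Col6a1, -0.57 to 0.81 for Col6a2 and -0.55 to 0.20 for Col6a3, so each interval included differences in both directions. Col6a4 and Col6a5, paralogues of Col6a3, and Col10a1, the chain of hypertrophic cartilage, lay below the median of all values and differed by 0.08, -0.01 and -0.11.

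Basement membrane chains had no gene with an unadjusted p under 0.05 in the fit of all 8 arrays without a block or covariate. Col4a1 and Col4a2, which make up the common type IV trimer, had the widest spread between arrays of this class. They lie head to head on chromosome 8, with starts 21 bases apart on opposite strands. Their windows overlap by 78 bases and are shown because the values of the pair tracked each other over the arrays. The Col4a1 window is chr8:11312777-11313076 on the minus strand and the Col4a2 window is chr8:11312555-11312854 on the plus strand, marked as above.
Col4a1: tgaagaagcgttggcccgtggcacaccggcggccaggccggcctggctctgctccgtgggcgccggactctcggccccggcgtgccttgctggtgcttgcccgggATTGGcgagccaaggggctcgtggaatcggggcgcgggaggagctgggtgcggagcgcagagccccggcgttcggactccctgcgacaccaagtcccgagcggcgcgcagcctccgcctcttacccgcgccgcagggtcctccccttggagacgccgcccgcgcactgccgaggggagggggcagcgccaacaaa
Col4a2: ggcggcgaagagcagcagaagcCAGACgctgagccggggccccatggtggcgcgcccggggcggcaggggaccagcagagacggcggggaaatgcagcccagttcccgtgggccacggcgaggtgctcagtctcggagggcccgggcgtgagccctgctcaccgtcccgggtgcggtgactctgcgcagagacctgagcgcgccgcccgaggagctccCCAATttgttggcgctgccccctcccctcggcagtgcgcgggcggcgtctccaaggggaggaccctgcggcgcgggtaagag
The last 78 bases of each window are the reverse complement of the last 78 of the other. Each window holds 1 CCAAT box match, and the Col4a2 window holds 1 SMAD box match. None of these matches lies wholly within the 78 shared bases.

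Col4a1 had 11.30, 12.04, 11.62 and 12.91 in mutants, against 12.20, 12.05, 12.75 and 13.27 in controls. Col4a2 had 10.51, 11.16, 11.09 and 12.43 in mutants, against 11.47, 11.38, 12.18 and 12.44 in controls. The groups overlapped for both, and replicate 4 was the highest array of its genotype for both. The differences were -0.60 (SE 0.38; limma adjusted p = 0.487) for Col4a1 and -0.57 (SE 0.41; adjusted p = 0.539) for Col4a2. Across the 8 arrays the 2 genes correlated with Pearson's r = 0.98 (exact two-sided permutation p = 2.48e-05, the smallest these permutations can give, 0.000174 adjusted over 7 chain pairs). Spearman's rho was 1.00 (exact permutation p = 4.96e-05, adjusted 0.000347), and r was 0.97 without the 2 arrays farthest from the median of Col4a1. The bioB groups hold 4 arrays each, too few for a value of their own.

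The arrays with the most Col4a1 signal, replicate 4 of both genotypes and control replicate 3, were those with the lowest macrophage marker means (11.45, 11.32 and 11.38). With that mean as a covariate the difference was 0.02 for Col4a1 and 0.11 for Col4a2. All 9 basement membrane chains then had a positive difference, with a median of 0.24. Among all 18193 genes 9697 were positive under the covariate, with a median of 0.02. Under the covariate Col4a6 differed by 0.39 (limma unadjusted p = 0.0246, adjusted p = 0.244). Col18a1, outside the rule for named genes and given for its p here, differed by 0.32 (limma unadjusted p = 0.0156, adjusted p = 0.223). Without the covariate it differed by -0.05. The part of the macrophage markers in the results was not tested. Without mutant replicate 4 the differences were -0.91 for Col4a1 (limma unadjusted p = 0.0193, adjusted p = 0.118) and -0.95 for Col4a2 (unadjusted p = 0.0128, adjusted p = 0.0934).

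**Figure D4:**
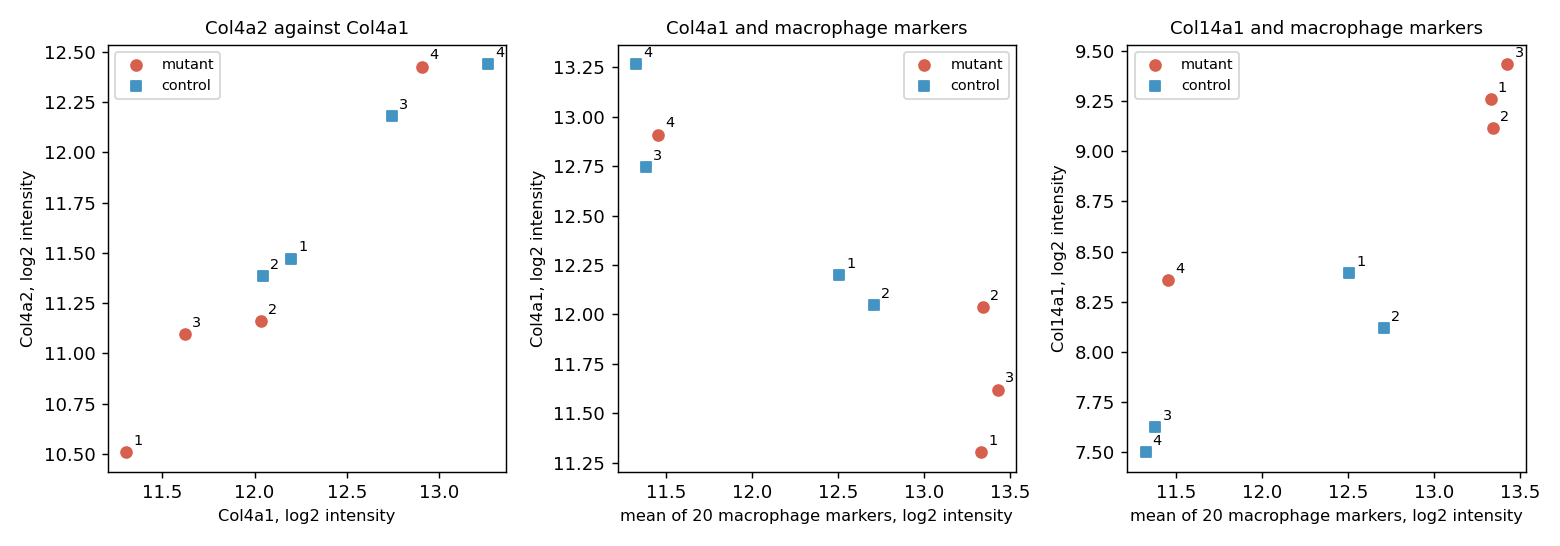
Log2 intensity of Col4a2 (vertical) against Col4a1 (horizontal), with 1 point for each of the 8 arrays, mutant and control. The points follow 1 rising line (r = 0.98). Mutant replicates 1, 2 and 3 lie at its lower end, and mutant replicate 4 lies among the control arrays. Further panels set Col4a1 and Col14a1 against the macrophage marker mean.

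The other type IV chains form the trimers of specialised membranes such as those of kidney and lens. Col4a5 had 9.95, 10.62, 10.38 and 10.59 in mutants, against 9.74, 9.77, 10.21 and 11.32 in controls, a difference of 0.13 (SE 0.34; limma adjusted p = 0.891). Control replicates 1 and 2 were its lowest arrays and control replicate 4 its highest, so control values enclosed the mutant range. Without control replicate 1 the difference was -0.04. Its X-linked neighbour Col4a6 differed by 0.15 (SE 0.18). Over the arrays Col4a5 and Col4a6 correlated with r = 0.70 (exact permutation p = 0.0505, adjusted 0.118) and rho = 0.79 (exact permutation p = 0.0279, adjusted 0.0977), and r was 0.60 without the 2 farthest arrays. Col4a3 and Col4a4, also head-to-head neighbours, lay below the median of all values, differed by 0.04 and 0.06, and had r = -0.01 (exact permutation p = 0.987).

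Col7a1, the anchoring fibril chain beneath epithelia, had 8.14, 8.13, 8.15 and 8.36 in mutants, against 8.02, 7.77, 8.27 and 8.45 in controls, a difference of 0.07 (SE 0.15). Replicates 3 and 4 were the highest controls, and the groups overlapped. Col15a1 and Col18a1, the multiplexins that carry endostatin-type end domains, differed by -0.02 and -0.05.

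Pairs with a member whose genotypes did not overlap were left out, namely Col1a1 with Col1a2, Col5a1 with Col5a2 and Col8a1 with Col8a2. Whether those pairs track each other was not tested. Of the 7 chain pairs examined, Col4a1 with Col4a2 was the only one with an adjusted p under 0.05. Col6a1 with Col6a2 had r = 0.73 (exact permutation p = 0.0328, adjusted 0.115), which turned to -0.44 without the 2 farthest arrays, so the relation rests on those arrays. The pairs not yet named, Col6a1 with Col6a3, Col6a2 with Col6a3 and Col12a1 with Col14a1, had r between -0.17 and 0.43.

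FACIT chains held the only collagen gene with a higher mutant mean at an unadjusted p under 0.05. Col14a1 encodes a chain that binds fibril surfaces and is known from tendon and skin. It had 9.26, 9.11, 9.43 and 8.36 in mutants, against 8.39, 8.12, 7.63 and 7.50 in controls. Mutant replicate 4 lay just under control replicate 1, and the other mutant arrays lay above every control. Col14a1 averaged 9.04 ± 0.47 in mutants and 7.91 ± 0.42 in controls (SD, n = 4 each), a difference of 1.13 (SE 0.27, 95% confidence interval 0.51 to 1.76), or 2.19-fold (limma adjusted p = 0.187). It was 0.93 among arrays with low bioB controls, 1.33 among those with high bioB controls and 0.68 with the macrophage marker mean as a covariate. Mutant replicate 4, its lowest mutant array, was also the mutant array with the lowest macrophage marker mean (11.45). The other 2 probe sets of Col14a1 were dimmer, with means of 7.04 and 5.60, and differed by 0.04 and 0.26.

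Col12a1, the FACIT chain nearest in kind to Col14a1, had 13.53, 13.81, 13.73 and 13.95 in mutants, against 13.89, 13.79, 13.92 and 13.54 in controls. The groups overlapped fully, and the difference was -0.03 (SE 0.12, 95% confidence interval -0.30 to 0.24). Col16a1, found on both fibrils and microfibrils, differed by -0.21 (SE 0.20) and Col20a1 by 0.14 (SE 0.08). The 5 remaining FACIT chains, among them the 3 type IX chains that coat cartilage fibrils, differed by -0.08 to 0.03.

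Transmembrane collagens are type II membrane proteins whose ectodomains can be shed. Col25a1, with a neuronal role in muscle innervation, was the only one above the median of all values and differed by 0.06 (SE 0.09). Col23a1 differed by 0.34 (SE 0.23), with mutant replicate 3 at 7.05 and the other 7 arrays between 5.84 and 6.35. Col13a1 differed by 0.09 and Col17a1, the hemidesmosome chain of epithelia, by -0.09. Col26a1 differed by 0.03. In these 5 genes the mutant and control values overlapped.

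Differences by array were also uneven within a genotype. The median deviation of the fibrillar genes from their own means was -0.55, -0.15, -0.14 and 0.07 on the mutant arrays, against 0.18, 0.13, 0.28 and 0.03 on the control arrays. Mutant replicate 1 was the lowest array for the class, and mutant replicate 4 lay above control replicate 4. The fibrillar median difference was -0.55 among arrays with low bioB controls, -0.25 among those with high bioB controls and -0.33 with the macrophage marker mean as a covariate. With that covariate 6 collagen genes were lower and 4 higher at an unadjusted p under 0.05, beside 8.86% and 7.71% of all genes. Without mutant replicate 4, the mutant array with the lowest macrophage marker mean, 5 collagen genes had an adjusted p under 0.05 (Col5a1, Col5a2, Col5a3 and Col8a1 lower, Col14a1 higher), beside 7.23% of all genes. The count was 8 with array weights, beside 8.08% of all genes, and 6 among arrays with low bioB controls, beside 11.5%.

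Further probe sets gave a second reading of many members. The 42 genes had 82 probe sets in all. Of the 42 genes 27 had more than 1, and 27 of their 40 further probe sets had the sign of the brightest one. Of the 18 further probe sets above the median of all values, 16 had the same sign. For the 10 genes with an unadjusted p under 0.05, all 9 such probe sets had the same sign, and 7 of these showed the larger difference. With the dimmer ones included, 10 of their 11 further probe sets had the same sign. The exception was the second Col5a3 probe set, which had a mean of 5.90 and differed by 0.05. The second Col3a1 probe set differed by -0.76, against -0.38 for the brightest, and the second Col5a2 probe set by -0.91, against -0.53. Col1a2 differed by -0.38 on its second probe set, against -0.16 on its brightest, while its dimmest, with a mean of 7.11, differed by 0.37. Col8a1 differed by -1.19 and -0.98 on its further probe sets, and Col11a1 by -1.39 on its second. Probe sets of 1 gene share their RNA and are not replicates.

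**Figure D5:**
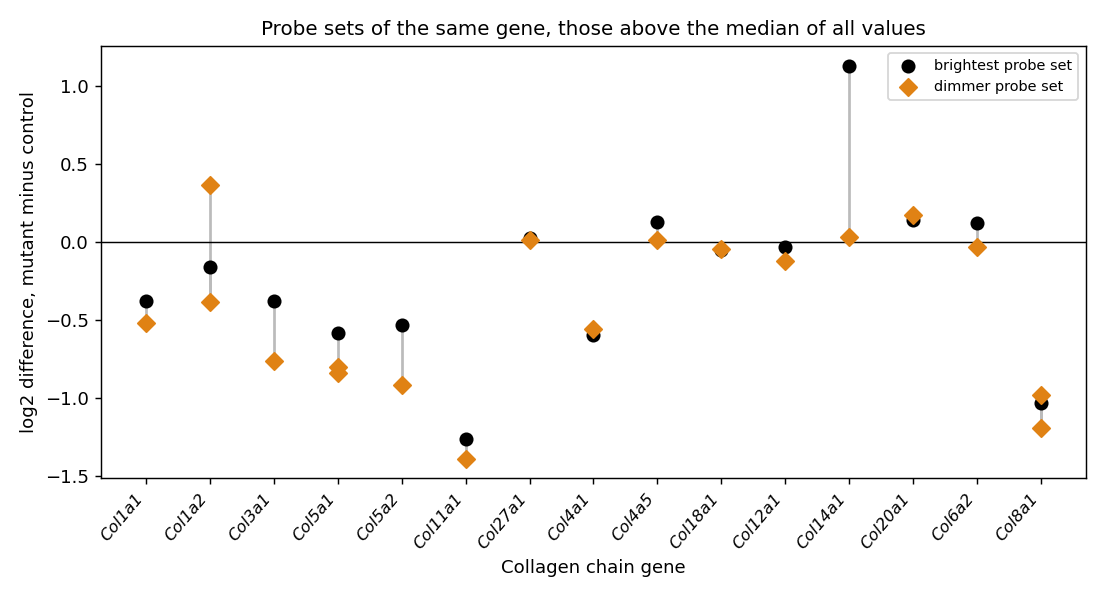
Mutant minus control log2 difference (vertical) of the probe sets above the median of all values, for the 15 collagen genes that have at least 2 of them (horizontal), with the brightest probe set as a black point and dimmer ones as orange diamonds. Points of Col3a1, Col5a1, Col5a2, Col11a1 and Col8a1 all lie below 0, while the Col14a1 points stand at 1.13 and 0.04.

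Genes whose products act on collagen were taken as 3 lists. Of 36 enzymes and chaperones of collagen processing 32 were measured, 30 had a negative difference (51.7% of all genes did) and 15 had an unadjusted p under 0.05, all lower (9.69% of all genes). Their median difference was -0.44, and 0 passed the adjusted threshold, while 8 had groups without overlap, all with lower mutant values (5.18% of all genes). Pcolce2, an enhancer of procollagen C-proteinase, ranged over 6.88 to 8.13 in mutants, against 8.71 to 9.66 in controls. The groups did not overlap, and the difference was -1.58 (SE 0.28; limma adjusted p = 0.130).

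Plod2, the lysyl hydroxylase of collagen telopeptides, had 8.28, 8.83, 8.61 and 9.86 in mutants, against 10.56, 10.37, 10.49 and 10.38 in controls. All mutant values lay below all controls, with mutant replicate 4 the nearest, and the difference was -1.56 (SE 0.30; adjusted p = 0.142). Fkbp14, an endoplasmic reticulum prolyl isomerase that acts on collagens, differed by -0.65 (SE 0.17; adjusted p = 0.187), again without overlap. With the macrophage marker mean as a covariate the list median was -0.23.

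Of 13 collagen receptors 12 were measured, with a median difference of 0.00. Mrc2, an endocytic receptor for collagen fragments, differed by -0.95 (SE 0.37; adjusted p = 0.278), while Lair1 and Oscar, receptors of leukocytes and osteoclasts, differed by 1.24 (SE 0.50; adjusted p = 0.290) and 0.78 (SE 0.27; adjusted p = 0.252). These were the 3 receptors with an unadjusted p under 0.05, 1 lower and 2 higher, where 9.69% of all genes were lower and 5.84% higher. Of 14 collagen-degrading enzymes 5 were lower and 1 higher at that level, beside 9.69% and 5.84% of all genes, with a list median of -0.14. The collagenases Mmp13 and Mmp8 differed by -2.07 (SE 0.65; adjusted p = 0.218) and -1.35 (SE 0.37; adjusted p = 0.190), and the membrane-type enzyme Mmp14 by -0.43 (SE 0.14; adjusted p = 0.237).

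Because Col2a1 and Col11a1 are cartilage fibril genes, 10 chondrocyte markers were set beside them. Their median difference was -0.08, with 6 negative and 4 positive, and at an unadjusted p under 0.05 2 were lower and 1 higher, beside 9.69% and 5.84% of all genes. Of the 10 markers 4 lay below the median of all values on all 8 arrays and 1 lay above it on all. Sox9, the transcription factor that directs cartilage formation, had 7.49, 7.78, 7.79 and 8.06 in mutants, against 9.10, 9.26, 8.73 and 8.21 in controls. The groups did not overlap, and the difference was -1.04 (SE 0.23; limma adjusted p = 0.178). The other 2 markers at that level were the matrix genes Hapln1, at -0.31 (SE 0.11; adjusted p = 0.259), and Matn1, which went the other way at 0.25 (SE 0.11; adjusted p = 0.319). The part of any chondrocyte-like cells in the Col2a1 and Col11a1 values was not tested.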

How the data were processed

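Per the labels' protocols, total RNA of cultured palatal mesenchyme was biotin-labelled for Affymetrix arrays. The authors deposited log2 intensities for every probe set on each array. RMA made them, per the submitters' processing notes, and that method corrects background, applies quantile normalisation and summarises probes. Its version and the genome build are not given in the sources used here. No further scaling was applied.

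The table held 45101 probe sets. Only the 34945 that carried exactly 1 symbol entered, which left out 64 array controls, 932 probe sets of several symbols and those of none. Symbols were updated through RefSeq (34741 probe sets matched), and the brightest probe set stood for each of 18193 genes. RefSeq lists 44 collagen symbols of this form, and Col6a6 and Col28a1 were not analysed here.

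The mutant minus control contrast was tested by limma (version 3.58.1, R 4.3.3; lmFit, then eBayes; no covariate; two-sided), with Benjamini-Hochberg adjustment over all genes and a threshold of 0.05. The fit was also run on simulated data, with noise drawn independently for each gene and array, so deviations shared by arrays were left out. It recovered 67% of 100 genes changed by a log2 difference of 1 and 95% of 100 changed by 2. SE and 95% intervals are limma's moderated ones, and the number of arrays, 4 per genotype, limits the precision. Correlations used exact permutation tests (scipy 1.17.1). Promoter letters were read from the RefSeq windows of 33 members on GRCm38.p6.

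Named genes were Tgfbr2, the 5 with the smallest p and the 2 brightest of each class, both members of chain pairs and the 3 with the smallest p of each partner list. Members, lists and tests were chosen with earlier results of these data known. Alternatives covered scaling, the summary of probe sets, a filter on dim genes, variance models, replicate and control-probe blocks, a macrophage covariate and leaving out each array.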

Additional observations from a re-analysis of the deposited data

Results flagged for a closer look

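Within the groups of 4 arrays, 92 groups of the named genes were checked for 1 array far from the other 3, and 5 were found, which is about the 1 in 20 that chance gives. Col2a1 stood at 6.45 on mutant replicate 1, with the other mutant arrays between 6.81 and 6.85. Col7a1 stood at 8.36 on mutant replicate 4, with the others between 8.13 and 8.15. Col6a2 stood at 11.21 on control replicate 4, with the others between 12.50 and 12.57, and this array sets the sign of its difference. Among the genes that act on collagen, Mrc2 stood at 11.30 on control replicate 3, with the other controls between 10.49 and 10.53, and Mmp8 stood at 8.82 on mutant replicate 2, with the other mutants between 7.31 and 7.51.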

How the results depend on the processing

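Of 23 alternatives, the 2 within poly-A groups were added after seeing the data. The 10 collagen genes with an unadjusted p under 0.05 kept their sign in all 23. Over the whole-table limma fit, 8 collagen genes passed the adjusted threshold with array weights (beside 8.08% of all genes), 6 within the low bioB group (11.5%) and 5 without mutant replicate 4 (7.23%), against 0 with all arrays, and leaving out 1 array gave 0 to 5. With the replicate block 0 of 18193 genes passed, against 16 without it, and 11 collagen genes were lower and 1 higher at an unadjusted p under 0.05, beside 12.5% and 8.55% of all genes. Col4a1 (limma adjusted p = 0.189 with the block) and Col4a2 (limma adjusted p = 0.208) were among the lower ones. Same-numbered arrays did not pair throughout (deviations correlated at 0.47, 0.42, -0.09 and 0.37).

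Lower genes at an unadjusted p under 0.05 numbered 1 within the high bioB group (3.52% of all genes) and 3 within the low poly-A group (1.25%). The low poly-A group holds control replicate 3, the array with high Xist, as its lone control, which is assumed to vary like the 2 mutant arrays, so its counts are no replicated comparison. Higher ones numbered 2 with array weights (11.5% of all genes), 4 with the macrophage covariate (7.71%) and 2 within the low bioB group (11.3%). They numbered 1 to 2 leaving out 1 array (3.4% to 10.2% of all genes). Genes without overlap numbered 17 lower and 8 higher within the low bioB group (33.1% and 27.1% of all genes), 12 and 2 within the high bioB group (20.6% and 17.1%), 22 and 6 within the low poly-A group (37.9% and 29.7%) and 14 and 2 within the high poly-A group (23% and 16.7%). Smaller groups overlap less often by construction. Leaving out 1 array gave 7 to 12 lower (5.67% to 13.2% of all genes) and 0 to 2 higher (3.36% to 10.9%). The 12 and the 2 came without mutant replicate 4, as did the 13.2% and the 10.9%. Quantile normalization or the mean of all probe sets gave 1 higher each (2.97% and 3.05% of all genes). The collagen median was -0.16 with dim genes left out, and within the low poly-A group the network median was -0.29 and the transmembrane median -0.019.

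Of 33 collagen genes followed 17 kept their sign throughout. Those that did not had differences of at most 0.60 in size in the fit of all 8 arrays without a block or covariate. None of those had an unadjusted p under 0.05 in that fit. With the macrophage covariate the sign turned for Col10a1 (0.087), Col12a1 (0.019), Col4a1 (0.018), Col4a2 (0.11), Col6a1 (0.063), Col6a2 (-0.086), Col6a3 (0.025) and Tgfbr2 (-0.084). Within the high bioB group it turned for Col12a1 (0.11), Col13a1 (-0.088), Col17a1 (0.056), Col4a3 (-0.073), Col4a5 (-0.28), Col6a1 (0.31) and Col7a1 (-0.11), and within the low bioB group for Col26a1 (-0.012) and Col6a2 (-0.27). Within the low poly-A group it turned for Col13a1 (-0.084), Col25a1 (-0.030), Col4a3 (-0.22), Col6a2 (-0.14) and Col7a1 (-0.019), and within the high poly-A group for Col26a1 (-0.017), Col4a6 (-0.080) and Col6a4 (-0.026). With the poly-A block Col4a3 was -0.056, with quantile normalization Col4a3 was -0.013 and Col26a1 -0.022, with centred arrays Col26a1 was -0.0045, with array weights Col6a2 was -0.13 and with the mean of probe sets Col25a1 was -0.10. Leaving out 1 array spanned -0.057 to 0.16 for Col4a3, -0.044 to 0.48 for Col4a5, -0.052 to 0.17 for Col7a1, -0.11 to 0.045 for Col12a1, -0.21 to 0.16 for Col6a1, -0.21 to 0.25 for Col6a2, -0.017 to 0.14 for Col6a4, -0.19 to 0.025 for Col10a1, -0.0086 to 0.10 for Col25a1 and -0.0013 to 0.056 for Col26a1. The cause was not tested. No signal-over-background call was available here, so the 15 collagen genes below the median of all values may carry little signal.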

Other observations

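Markers of other cell types that make collagen were read on the same arrays. Median differences were 0.04 for 9 epithelial markers, 0.04 for 9 endothelial markers, -0.02 for 6 pericyte markers, -0.08 for 5 osteoblast markers and 0.10 for 4 Schwann and neural markers, and 0 members of these lists passed the adjusted threshold of the limma fit. On all 8 arrays 5 of the epithelial, 6 of the endothelial, 3 of the pericyte and 3 of the osteoblast markers lay below the median of all values. The pericyte list had 3 negative and 3 positive members. Its member with the smallest p, Cspg4, a proteoglycan of pericytes that binds type VI collagen, averaged 8.07 ± 0.26 in mutants and 8.79 ± 0.32 in controls (SD, n = 4 each), without overlap. Its difference was -0.72 (SE 0.18; limma adjusted p = 0.187). The epithelial list had 4 negative and 5 positive members, among them Krt18 at -0.38 (SE 0.38) and Krt14 at 0.22 (SE 0.09). Cdh1, the epithelial cadherin and the member with the smallest p, had 6.76, 7.44, 6.96 and 5.20 in mutants, against 6.14, 5.46, 4.57 and 4.30 in controls. Mutant replicate 4 lay within the control range, and the difference was 1.47 (SE 0.55; limma adjusted p = 0.268).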
